A study of Mus musculus with 20 samples.

Results

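The 10 genes described here are the mouse LXR receptors and a set of their targets and partners in cholesterol export and lipid handling: *Nr1h3*, *Nr1h2*, *Abca1*, *Abcg1*, *Mylip*, *Npc1*, *Ch25h*, *Apoc1*, *Apoc2* and *Lpcat3*. They were chosen by symbol, with earlier results of these data known, and are 10 of the 55487 gene identifiers in the count table. Of these, 9 passed the filter on low counts and were tested among 12799 genes, and *Ch25h* did not pass. Bulk RNA-seq was carried out on 20 cultures of BV-2, an immortalised mouse microglial cell line, in 4 groups of 5: young (control) and aged cells without treatment, and young and aged cells exposed to 100 ng/ml lipopolysaccharide (LPS), a bacterial ligand of TLR4, for 6 hours. Young cells were of low passage. Aged cells were the same line after long-term cultivation, with no added challenge, and had started from a higher passage, so age in culture cannot be told apart from other differences between the stocks of cells. In bulk RNA, fewer cells with a transcript and less transcript per cell cannot be told apart.

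LXRα (*Nr1h3*) and LXRβ (*Nr1h2*) are nuclear receptors that bind DNA as heterodimers with RXR and are switched on by oxysterols and by desmosterol, so that transcription of their targets rises when a cell holds much cholesterol. The products of the targets pump cholesterol out of the cell (ABCA1 and ABCG1), load it onto apolipoproteins of the *Apoe* cluster, slow lipoprotein uptake (MYLIP) and remodel membrane phospholipids (LPCAT3). In microglia this system is known for the clearance of lipid taken up from myelin, and LXR is also known for restraining inflammatory transcription after TLR stimulation.

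Total counts were 11371508 to 16829292 per library (median 14370473), and 3 counts, taken as the floor of detection, correspond to 0.178 to 0.264 CPM, the count scaled to the size of its library. The microglia and macrophage markers summed to 2080 to 4030 CPM, with *Csf1r* at 562 to 998 and *Cd68* at 753 to 1410 CPM. *Sall1*, a defining factor of brain microglia, had 0 counts in all 20 libraries, and *P2ry12* reached at most 2 counts in aged LPS-treated cultures. The 4 neuron markers stayed at or below 1 count and the astrocyte, oligodendrocyte and fibroblast lists at or below 1.78 CPM. The endothelial list summed to 308 to 405 CPM, nearly all of it from *Flt1*, while *Cldn5* had 0 counts and *Cdh5* at most 3.

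The upstream stretches of 3 members are printed to show what sequence lies at their start sites. *Abca1* and *Nr1h3* rose with LPS at both ages, and *Mylip* fell with LPS in aged cells. The stretches are RefSeq sequences of GRCm38.p6, given 5′ to 3′ on the strand of the gene. Capitals mark the match to the LXR response element DR4.
Abca1, chr4:53159896-53160045, minus strand: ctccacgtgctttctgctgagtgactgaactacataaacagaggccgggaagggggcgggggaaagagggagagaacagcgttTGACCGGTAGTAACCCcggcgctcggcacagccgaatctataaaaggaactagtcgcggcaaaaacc
Nr1h3, chr2:91195117-91195266, minus strand: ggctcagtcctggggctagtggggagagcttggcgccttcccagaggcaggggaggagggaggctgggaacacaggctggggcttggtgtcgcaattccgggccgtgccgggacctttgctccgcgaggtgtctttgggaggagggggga
Mylip, chr13:45389592-45389741, plus strand: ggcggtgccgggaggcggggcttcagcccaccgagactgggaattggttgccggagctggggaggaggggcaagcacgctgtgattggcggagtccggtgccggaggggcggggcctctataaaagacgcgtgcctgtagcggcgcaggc
The *Nr1h3* stretch lies before a start site inside the longer gene model of the annotation. In windows of 300 bases around the start site, which were at hand for 7 of the 10 members (8 windows), both strands were searched for AGGTCA repeated in the same direction after 4 bases of any kind, the form of a DR4. No member had a match with up to 2 mismatches, which 3.023% of 32851 mouse promoter windows had. *Abca1* alone had a match with 3 mismatches, from -67 to -52 on the strand opposite to the gene, and 21.884% of all windows had such a match. The letters GGGA and TTCC with 2 bases between them, for NF-kB, and a repeat of GAAA with 2 bases between, the core of the interferon-stimulated element, were in none of the 8 windows and in 1.467% and 3.443% of all windows. The absence of a match says only that these letters are not in this window.

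To ask how the LXR genes differ with age in culture, with LPS, and whether the LPS response depends on age, each comparison was read from the same model, edgeR's quasi-likelihood test with adjustment over all genes tested (n = 5 cultures per group). Between aged and young untreated cultures, 4 of the 9 members were lower and 0 were higher, where 11.5% of all genes tested passed, 3.71% higher and 7.81% lower (475 and 1000 genes). The members' median log2 fold change was -0.22, against -0.01 over all genes. Because the members were chosen with earlier results known, their counts and medians beside those of all genes are a description only. With LPS, 3 members were higher and 1 lower in young cells, where 64.6% of all genes passed (31.2% higher, 33.5% lower), and 3 were higher and 2 lower in aged cells, where 54.4% passed (27.5% higher, 26.9% lower). Both counts are close to or below that background. Between aged and young LPS-treated cultures 5 members were lower and 0 were higher, where 29% of all genes passed (14% higher, 15% lower), and the median was -0.40 against 0.01. Without the cultures of replicate number 2, 1 member passed with age in untreated cells, and 2 did without those of number 1 or 5 or without aged untreated replicate 5 alone. In the young LPS response 2 members passed without young untreated replicate 2. Calls over all genes fell in these fits too. With age in untreated cells they were 548 without number 2, 1193 without number 1 and 984 without number 5, in place of 1475. Without aged untreated replicate 5 they were 1148. In the young LPS response they were 7950 in place of 8270. In both age comparisons the count of members higher in aged cells was also 0 at an unadjusted p under 0.05 in edgeR and at an adjusted p under 0.05 in DESeq2. The LPS response itself differed with age for 1 member, *Mylip*, where 6.39% of all genes passed (4.12% higher, 2.27% lower). Groups that did not overlap in CPM were seen for 3 members in aged against young untreated cultures (10.4% of all genes), 2 in young LPS against untreated (49.1%), 3 in aged LPS against untreated (40.1%) and 4 in aged against young with LPS (14.8%). Scaling by library size alone, without TMM factors, moved the median of all genes to -0.23 in the young and -0.16 in the aged LPS response, and called 2407 genes higher and 6401 lower in young cells in place of 3988 and 4282.

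**Figure D1:**
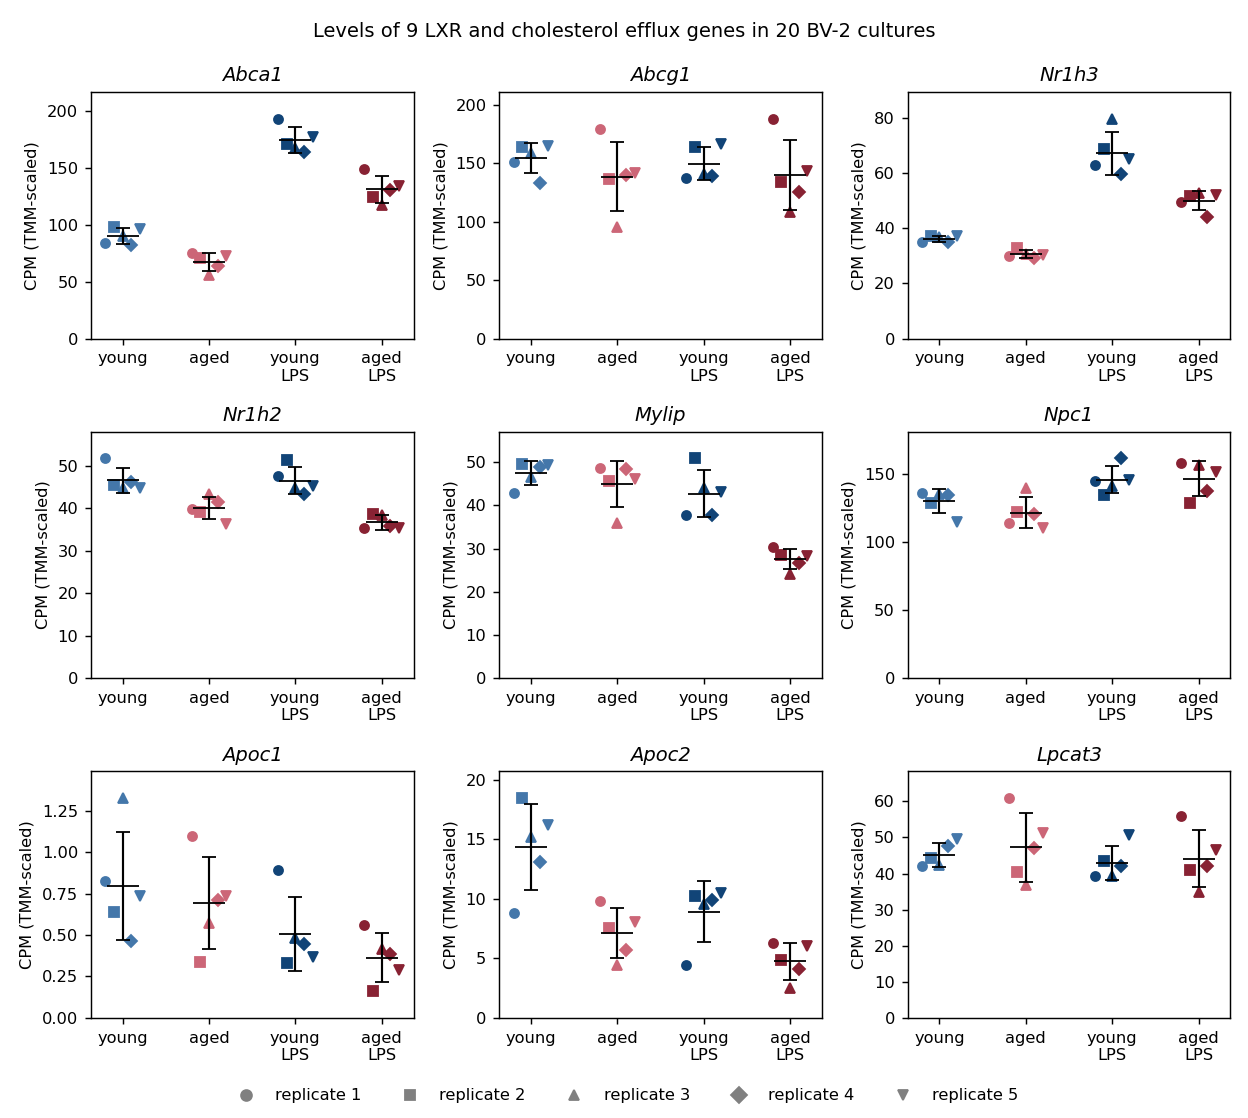
CPM scaled by TMM factors (vertical axis, from 0) of the 9 tested genes in each of the 20 cultures, by group; each symbol is 1 culture, its shape gives the replicate number, and the bar and whiskers are the mean ± SD of 5 cultures. *Abca1* and *Nr1h3* step up with LPS at both ages and sit lower in aged cells, *Mylip* is lowest in aged LPS-treated cells at 24.1 to 30.5 CPM, and *Abcg1* and *Lpcat3* spread most in aged cells.

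*Nr1h3* (ENSMUSG00000002108, GRCm38 chromosome 2, 91184061 to 91202834, minus strand) encodes LXRα, the LXR form typical of macrophages. Its level in replicates 1 to 5 was 34.9, 37.3, 36.8, 35.0 and 37.0 CPM in young and 30.1, 33.0, 30.8, 29.1 and 30.4 CPM in aged untreated cultures. With LPS it was 62.7, 68.7, 79.7, 59.5 and 64.9 CPM in young and 49.5, 51.6, 52.6, 44.1 and 52.0 CPM in aged cultures. All LPS-treated cultures stood above all untreated ones, and within each treatment all aged cultures stood below all young ones. The rise with LPS was 0.89 ± 0.07 (SE) on the log2 scale in young cells (adjusted p = 8.55e-11) and 0.70 ± 0.07 in aged cells (adjusted p = 9.49e-09), and the difference between these responses, -0.18 ± 0.10, did not pass the threshold (adjusted p = 0.299). Aged cells were lower by a log2 fold change of -0.24 ± 0.07 without LPS (adjusted p = 0.0258) and of -0.43 ± 0.07 with LPS (adjusted p = 4.64e-05). The age difference without LPS was lower in 5 of 5 batches but rested on single libraries: its adjusted p was 0.064 without young replicate 2, 0.0588 without young replicate 3, 0.071 without aged replicate 4 and 0.0512 without aged replicate 5. *Gm13783*, which shares 34 exon bases with *Nr1h3* on the same strand, had 73 counts in all.

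*Nr1h2* (ENSMUSG00000060601, chromosome 7, 44549616 to 44553951, minus strand) encodes LXRβ, the form present in nearly all tissues. Its level was 51.7, 45.5, 44.8, 46.2 and 44.8 CPM in young and 39.8, 39.0, 43.4, 41.5 and 36.4 CPM in aged untreated cultures. Under LPS the level was 47.5, 51.4, 44.8, 43.3 and 45.1 CPM in young and 35.3, 38.5, 38.4, 35.7 and 35.2 CPM in aged cultures. Aged cultures were below young ones in either treatment without overlap, while untreated and LPS-treated cultures of an age overlapped. The age difference was -0.22 ± 0.06 without LPS (adjusted p = 0.0181) and -0.34 ± 0.06 with LPS (adjusted p = 0.000169). No LPS effect passed, with -0.01 ± 0.06 in young (adjusted p = 0.939) and -0.13 ± 0.06 in aged cells (adjusted p = 0.0748), whereas with library sizes alone both did, at -0.23 (adjusted p = 0.00107) and -0.29 (adjusted p = 0.000136). Without young untreated replicate 1, the highest of its group, the untreated age difference was -0.18 (adjusted p = 0.0608), and without aged replicate 5 it was -0.19 (adjusted p = 0.0576). That young culture also had the highest summed level of the listed interferon and TLR4 response genes among untreated cultures, 227 CPM against 154 to 171 in the other young ones, and its part in the result was not tested.

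The proportion of the 2 receptors is free of library scaling, since both come from the same library. The ratio of *Nr1h3* to *Nr1h2* was taken in CPM per kb, the length being all exon bases annotated for the gene. Its absolute value depends on these lengths, and its change between groups does not. It was 1.04 ± 0.09 (SD, n = 5) in young and 1.03 ± 0.09 in aged untreated cultures. With LPS it was 1.93 ± 0.25 in young and 1.82 ± 0.12 in aged cultures. The ratio spanned 0.90 to 1.13 in the 10 untreated cultures and 1.65 to 2.37 in the 10 LPS-treated ones, so the ranges were apart, and at either treatment the ages overlapped.

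RXR is the partner that LXR needs to bind DNA. *Rxra* was 263 ± 16.1 CPM in young and 233 ± 19.7 in aged untreated cultures and fell with LPS to 64.5 ± 15.3 in young and 96.1 ± 17.8 in aged cultures, a log2 fold change of -2.02 ± 0.13 (adjusted p = 4.33e-12) and -1.27 ± 0.13 (adjusted p = 1.23e-08). The responses differed by 0.75 ± 0.18 (adjusted p = 0.0117). *Rxrb* fell in both ages as well and its responses differed by 0.26 (adjusted p = 0.041), and *Rxrg* had 0 counts in every library. Of the 11 tested partners and coregulators, all 11 fell in young and 10 in aged cells with LPS, with medians of -0.77 and -0.51, where 33.5% and 26.9% of all genes tested were lower. Among them were *Nrip1*, a corepressor of nuclear receptors (-1.47 and -0.83, with a difference of the responses of 0.64 that did not pass, adjusted p = 0.0526), and the coactivator *Ncoa2* (-1.17 and -0.82). *Nr1h3* mRNA rose while the mRNAs of its partners fell in the same cultures. With age alone 1 of the 11 changed, the coactivator *Ncoa1* (-0.20, adjusted p = 0.0257), where 11.5% of all genes tested passed.

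*Abca1* (ENSMUSG00000015243, chromosome 4, 53030787 to 53159895, minus strand), whose promoter is shown above, encodes the pump that gives cholesterol and phospholipid to lipid-poor apolipoproteins. Its level was 83.8, 98.3, 89.9, 82.6 and 96.2 CPM in young and 75.0, 71.3, 55.8, 64.1 and 72.4 CPM in aged untreated cultures. In LPS-treated cultures it was 193, 171, 167, 164 and 177 CPM in young and 149, 124, 118, 130 and 134 CPM in aged cultures. The 4 groups did not overlap. LPS raised *Abca1* 1.93-fold in young cells (log2 0.95 ± 0.08, adjusted p = 2.5e-10) and 1.94-fold in aged cells (log2 0.95 ± 0.08, adjusted p = 5.26e-10), and the difference of these responses was 0.00 ± 0.11 (adjusted p = 0.995). Aged cells were lower by -0.41 ± 0.08 without LPS (adjusted p = 0.00129) and by the same amount with LPS (adjusted p = 0.000278), each in 5 of 5 batches. These 4 calls held in every alternative fit that was run and with any single culture left out.

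*Abcg1* (ENSMUSG00000024030, chromosome 17, 31057675 to 31117988, plus strand) encodes the transporter that passes cholesterol on to mature HDL. Its level was 151, 164, 159, 134 and 165 CPM in young and 179, 137, 95.7, 140 and 142 CPM in aged untreated cultures. After LPS the values were 137, 164, 141, 140 and 167 CPM in young and 188, 134, 109, 125 and 144 CPM in aged cultures. All groups overlapped and no comparison passed: the log2 fold changes were -0.16 ± 0.13 and -0.10 ± 0.13 with age (adjusted p = 0.501 and 0.641) and -0.04 ± 0.13 and 0.02 ± 0.13 with LPS (adjusted p = 0.783 and 0.934). Aged replicate 1 was the highest and aged replicate 3 the lowest of their groups under both treatments. The ratio of *Abca1* to *Abcg1* per kb went from 0.41 ± 0.02 (SD) to 0.83 ± 0.10 with LPS in young cells and from 0.35 ± 0.04 to 0.67 ± 0.08 in aged cells.

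**Figure D2:**
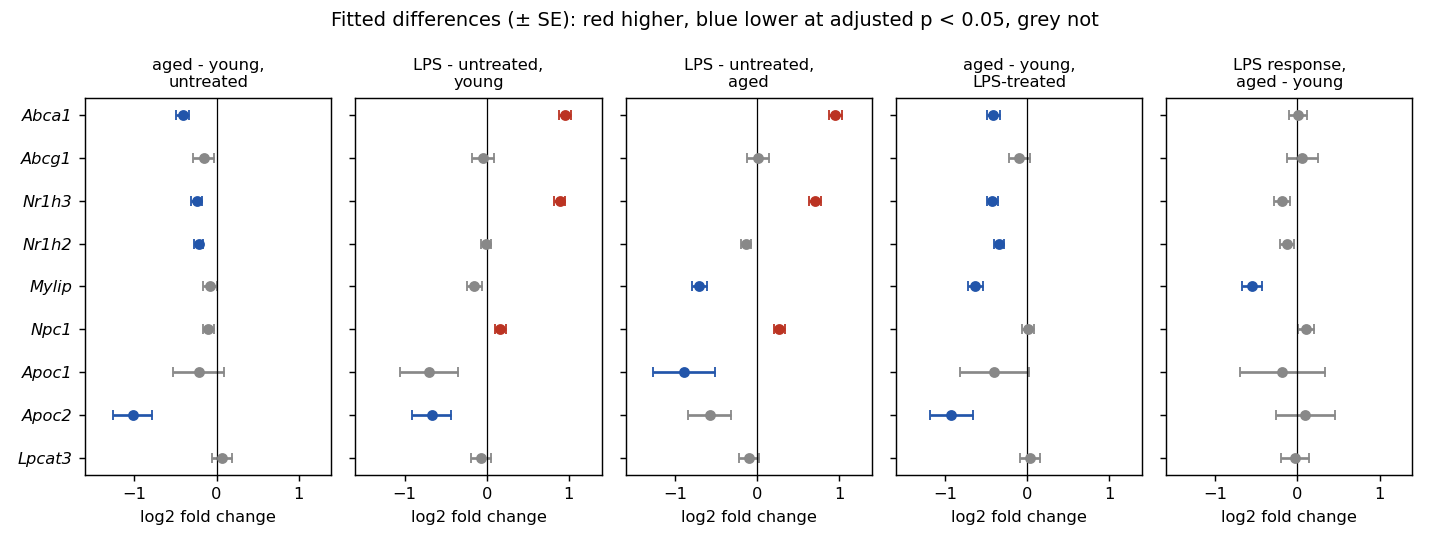
Fitted log2 fold changes (horizontal axis) ± SE of the 9 tested genes in 5 comparisons, from edgeR with n = 5 per group; red is higher and blue lower at an adjusted p below 0.05, grey is neither. *Abca1* and *Nr1h3* are red in both LPS panels and blue in both age panels, *Abcg1* and *Lpcat3* are grey in all 5 panels, and *Mylip* is the only one past the threshold in the last panel, at -0.55.

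*Mylip* (ENSMUSG00000038175, chromosome 13, 45389742 to 45412022, plus strand) encodes an E3 ubiquitin ligase, also called IDOL, that sends lipoprotein receptors to lysosomal breakdown. It was 42.8, 49.5, 46.7, 49.0 and 49.3 CPM in young and 48.6, 45.8, 35.9, 48.5 and 46.2 CPM in aged untreated cultures. LPS-treated cultures had 37.8, 50.9, 44.0, 37.7 and 43.1 CPM in young and 30.5, 28.5, 24.1, 26.7 and 28.2 CPM in aged cultures. The 5 aged LPS-treated cultures lay below the other 15, which overlapped. *Mylip* fell with LPS by 0.70 ± 0.09 on the log2 scale in aged cells (adjusted p = 5.99e-07), while the value in young cells was -0.15 ± 0.09 (adjusted p = 0.134). The difference between the responses was -0.55 ± 0.12 (adjusted p = 0.00881), in the same direction in 5 of 5 batches. The LPS to untreated ratio within a batch was 0.77 to 1.03 in young and 0.55 to 0.67 in aged cells. Leaving out all 4 cultures of replicate number 2 or of number 5 gave an adjusted p of 0.0823 or 0.0545 for the difference of the responses, at -0.50 and -0.56. With LPS, aged cells were lower by 0.63 ± 0.09 on the log2 scale (adjusted p = 1.69e-05), and without LPS the age difference was -0.08 ± 0.09 (adjusted p = 0.636). The LPS effect in young cells was -0.37 (adjusted p = 0.000809) with library sizes alone, and -0.22 (adjusted p = 0.0285) without young LPS replicate 2, the highest of its group.

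Lipoprotein receptors and substrates of MYLIP formed a further list. *Lrp8*, the receptor for apolipoprotein E and reelin, fell with LPS in young cells (-0.37, adjusted p = 0.0458) and was higher in aged than young cells with LPS (0.50, adjusted p = 0.0197). *Vldlr*, a substrate of MYLIP, had 0 counts in every library. Of the 7 tested genes of this receptor list, 2 rose and 2 fell with LPS in young cells, 2 rose in aged cells, and 0 passed with age alone (2 were lower at an unadjusted p under 0.05 in edgeR, 0 passed in DESeq2). Among all genes tested, 31.2% rose and 33.5% fell with LPS in young cells and 27.5% rose in aged cells. With age alone 11.5% passed. *Olr1*, a scavenger receptor for oxidised LDL, rose most with LPS (3.74 and 3.27), and *Msr1*, the class A scavenger receptor, was lower in aged cells with LPS (-0.98, adjusted p = 0.00401).

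**Figure D3:**
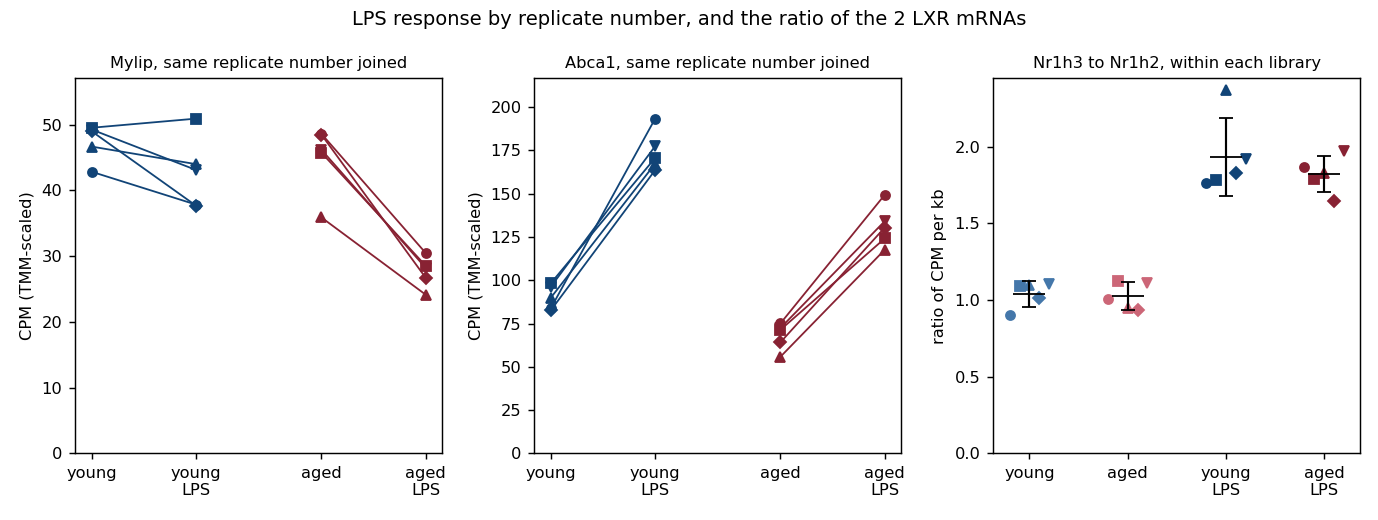
CPM of *Mylip* and *Abca1* (vertical axes, from 0) in untreated and LPS-treated cultures, with cultures of the same replicate number and age joined by a line, and the ratio of *Nr1h3* to *Nr1h2* in CPM per kb in each culture with mean ± SD. The *Mylip* lines fall to 0.55 to 0.67 of the untreated level in the 5 aged pairs, while in young cells 4 fall, the lowest to 0.77, and that of replicate 2 rises to 1.03. The *Abca1* lines rise in all 10 pairs, and the receptor ratio lies above 1.6 in all LPS-treated cultures.

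*Npc1* (ENSMUSG00000024413, chromosome 18, minus strand) encodes the lysosomal membrane protein that exports cholesterol from lysosomes. It was 136, 129, 136, 135 and 115 CPM in young and 114, 123, 140, 120 and 111 CPM in aged untreated cultures. Under LPS the level was 145, 135, 142, 162 and 146 CPM in young and 158, 129, 157, 138 and 152 CPM in aged cultures. The groups overlapped in every comparison, although the LPS-treated culture was the higher in all 10 pairs of an age and batch. The increase was 0.27 ± 0.07 in aged cells (adjusted p = 0.0022) and 0.16 ± 0.07 in young cells (adjusted p = 0.043), and with library sizes alone the young value turned to -0.05 (adjusted p = 0.502) and the aged one fell to 0.11 (adjusted p = 0.176). In edgeR the young call was also lost without any one of 8 single cultures (young untreated replicates 2 and 5, aged untreated 2 and 4, young LPS 1, 4 and 5, aged LPS 1), with adjusted p of 0.0503 to 0.135 for *Npc1*. No age difference passed (adjusted p = 0.411 without and 0.943 with LPS). *Rmc1* overlaps 4.52% of the exon bases of *Npc1* on the opposite strand.

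Of the 16 tested genes for cholesterol transport and esterification, 3 rose and 7 fell with LPS in young cells and 3 rose and 6 fell in aged cells. Over all genes tested 31.2% rose and 33.5% fell in young cells, and 27.5% rose and 26.9% fell in aged cells. With age, 3.71% were higher and 7.81% lower without LPS, and 14% and 15% with LPS. *Gramd1b*, which carries cholesterol from the plasma membrane to the endoplasmic reticulum, rose by 1.25 and 1.24, and *Abca2*, a transporter of endosomes and lysosomes, fell by 1.26 and 0.90 (log2). *Stard4*, a soluble sterol carrier, fell by 1.10 and 0.83. With age in untreated cells 1 gene of the list was higher and 4 were lower, among them *Scarb1*, the HDL receptor (-0.39, adjusted p = 5.33e-06), *Abca7* (-0.44, adjusted p = 0.00613) and *Lipa*, the lysosomal acid lipase (-0.36, adjusted p = 0.00526). With LPS 3 genes of the list were higher and 6 lower in aged cells. *Abca5*, an ABC transporter of lysosomes, was higher (0.52, adjusted p = 0.000334), the age difference of *Lipa* was -0.60, and *Npc2*, the soluble partner of NPC1 in the lysosome, was lower as well (-0.53, adjusted p = 0.0183).

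*Ch25h* (ENSMUSG00000050370, chromosome 19, 34473778 to 34475164, minus strand) encodes cholesterol 25-hydroxylase, which makes an oxysterol and in primary macrophages is known as an interferon-responsive gene. It had 0 counts in all 20 libraries, LPS-treated ones included, which allows up to 3 counts per library, or at most 0.178 to 0.264 CPM. In the same cultures all 9 tested interferon and TLR4 response genes rose with LPS at both ages, with medians of 3.44 in young and 2.6 in aged cells on the log2 scale, and all 9 were lower in aged than in young cells with LPS (median -1.15). *Isg15*, a ubiquitin-like modifier, went from 1.78 ± 1.15 to 224 ± 42.7 CPM in young cells and from 0.25 ± 0.12, or 3 to 7 counts per library, to 85.1 ± 25.2 CPM in aged cells. *Rsad2*, which encodes the antiviral enzyme viperin, reached 2229 ± 505 CPM in young and 719 ± 335 in aged cells. In the difference of the responses 0 of the 9 were higher and 2 lower, where 4.12% and 2.27% of all genes tested were. With age under LPS 15% of all genes tested were lower. Among the other enzymes that make or break down oxysterols, *Cyp7b1*, *Cyp7a1* and *Cyp39a1* also had 0 counts throughout. *Cyp27a1*, which makes 27-hydroxycholesterol, fell with LPS by 1.04 in young and 0.68 in aged cells, and with LPS it was higher in aged than in young cells (0.36, adjusted p = 0.0199). *Gpr183*, the receptor for oxysterols derived from the product of CH25H, fell by 2.95 and 2.5 (log2). Of the 10 listed oxysterol genes 5 were tested, of which 3 fell and 0 rose with LPS at either age (also 0 higher at an unadjusted p under 0.05 in edgeR and in DESeq2). The shares of all genes tested that fell were 33.5% in young and 26.9% in aged cells, and 31.2% and 27.5% rose.

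*Apoc2* (ENSMUSG00000002992, chromosome 7, 19671579 to 19677941, minus strand) encodes the apolipoprotein that activates lipoprotein lipase. The readthrough gene *Gm44805*, on the same strand, covers 79.46% of its exon bases and had 0.98 to 1.08 times its counts in every library, so reads could not be assigned to either of them alone. *Apoc2* was 8.83, 18.5, 15.2, 13.1 and 16.2 CPM in young and 9.83, 7.54, 4.39, 5.71 and 8.06 CPM in aged untreated cultures. In LPS-treated cultures it was 4.45, 10.2, 9.59, 9.92 and 10.5 CPM in young and 6.25, 4.87, 2.48, 4.10 and 6.00 CPM in aged cultures. Young replicate 1 was the lowest young culture under both treatments and overlapped the aged ones, and all other young cultures lay above the aged cultures of the same treatment. Aged cells were lower by a log2 fold change of -1.02 ± 0.24 without LPS (adjusted p = 0.00651) and of -0.93 ± 0.26 with LPS (adjusted p = 0.0102), each in 4 of 5 batches. Without the cultures of replicate number 1 the *Apoc2* values were -1.30 (adjusted p = 0.000243) and -1.20 (adjusted p = 0.000311). Without those of number 2 both age calls were lost (adjusted p = 0.0751 and 0.0615), and without those of number 4 the call with LPS was (adjusted p = 0.0604). With LPS *Apoc2* fell in young cells (-0.67 ± 0.24, adjusted p = 0.0159), but without young untreated replicate 2 the adjusted p was 0.0522, and in aged cells the value was -0.58 ± 0.26 (adjusted p = 0.0693). The aged value of *Apoc2* passed in DESeq2 with the replicate block (adjusted p = 0.0424), with library sizes alone (-0.74, adjusted p = 0.0214), with no filter (adjusted p = 0.0344), without the cultures of replicate number 1 (adjusted p = 0.0361) and without aged untreated replicate 3, young LPS replicate 1 or aged LPS replicate 1 (adjusted p = 0.026, 0.0425 and 0.0406). The LPS-treated culture was the lower in all 10 pairs of an age and batch.

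*Apoc1* (ENSMUSG00000040564, chromosome 7, 19689481 to 19692660, minus strand), which encodes an inhibitor of lipoprotein uptake and lipolysis, was near the floor, with 2 to 22 counts per library. The CPM were 0.83, 0.64, 1.33, 0.46 and 0.73 in young and 1.10, 0.34, 0.57, 0.71 and 0.73 in aged untreated cultures, and 0.89, 0.33, 0.48, 0.45 and 0.37 in young and 0.56, 0.17, 0.41, 0.39 and 0.29 in aged cultures with LPS. All groups overlapped. A fall with LPS in aged cells passed narrowly (-0.89 ± 0.37, adjusted p = 0.0484) and did not pass in DESeq2 (adjusted p = 0.0993) nor without any one of 14 of the 20 cultures, with the highest adjusted p of *Apoc1*, 0.152, without aged untreated replicate 1. In young cells the fall was -0.71 ± 0.35 (adjusted p = 0.0835). It was -0.70 (adjusted p = 0.038) with the replicate number as a block in edgeR and -0.92 (adjusted p = 0.0231) with library sizes alone. DESeq2 with the block did not call it. Differences in *Apoc1* between the other groups were not detectable at this depth.

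The other genes of the *Apoe* cluster, *Apoe* and *Apoc4*, were lower in aged cells, as *Apoc2* was. *Apoe*, the main apolipoprotein of glial cells, was 2929 ± 551 CPM in young and 1684 ± 217 in aged untreated cultures and 2197 ± 537 and 1212 ± 274 CPM with LPS, an age difference of -0.80 ± 0.16 (adjusted p = 0.00254) and -0.86 ± 0.16 (adjusted p = 0.000349). *Apoc4* was lower by -1.26 ± 0.28 (adjusted p = 0.00563) and -1.62 ± 0.33 (adjusted p = 0.000772) at 4 to 38 counts per library. The readthrough gene *Gm44805*, which shares reads with *Apoc2*, also spans most of *Apoc4* on the same strand. How many reads of *Apoc4* come from it was not tested, so *Apoc4* may not be independent of *Apoc2*.

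*Lpcat3* (ENSMUSG00000004270, chromosome 6, 124663027 to 124704418, plus strand) encodes the acyltransferase that puts polyunsaturated chains into membrane phospholipids. It was 42.0, 44.4, 42.4, 47.6 and 49.5 CPM in young and 61.0, 40.3, 36.8, 47.0 and 51.3 CPM in aged untreated cultures. After LPS the values were 39.3, 43.4, 39.3, 42.1 and 50.6 CPM in young and 56.0, 40.9, 35.0, 42.0 and 46.6 CPM in aged cultures. The groups overlapped and no comparison passed, with log2 fold changes of -0.10 to 0.06 and an SE of 0.12 in each of the 4 comparisons between groups. With library sizes alone the young LPS value of *Lpcat3* was -0.29 (adjusted p = 0.0411). As for *Abcg1*, aged replicate 1 was the highest and aged replicate 3 the lowest of its group under either treatment. *Emg1* overlaps 10.22% of the exon bases on the opposite strand. A list of acyltransferases related to *Lpcat3* held 7 tested genes. With age 1 was higher and 1 lower without LPS (3.71% and 7.81% of all genes), and 3 and 1 with LPS (14% and 15%). In the LPS response 2 rose and 4 fell in young cells (31.2% and 33.5%), and 3 rose and 4 fell in aged cells (27.5% and 26.9%). *Lpcat4* was higher in aged cells (0.80 and 1.10, adjusted p = 3.22e-07 and 2.4e-09). *Lpcat2*, which also makes platelet-activating factor, was lower in aged cells (-0.71 and -0.34) and rose with LPS (0.81 and 1.17). *Lpcat1* fell with LPS (-0.99 and -0.57), with a difference of the responses of 0.42 (adjusted p = 0.000849).

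**Figure D4:**
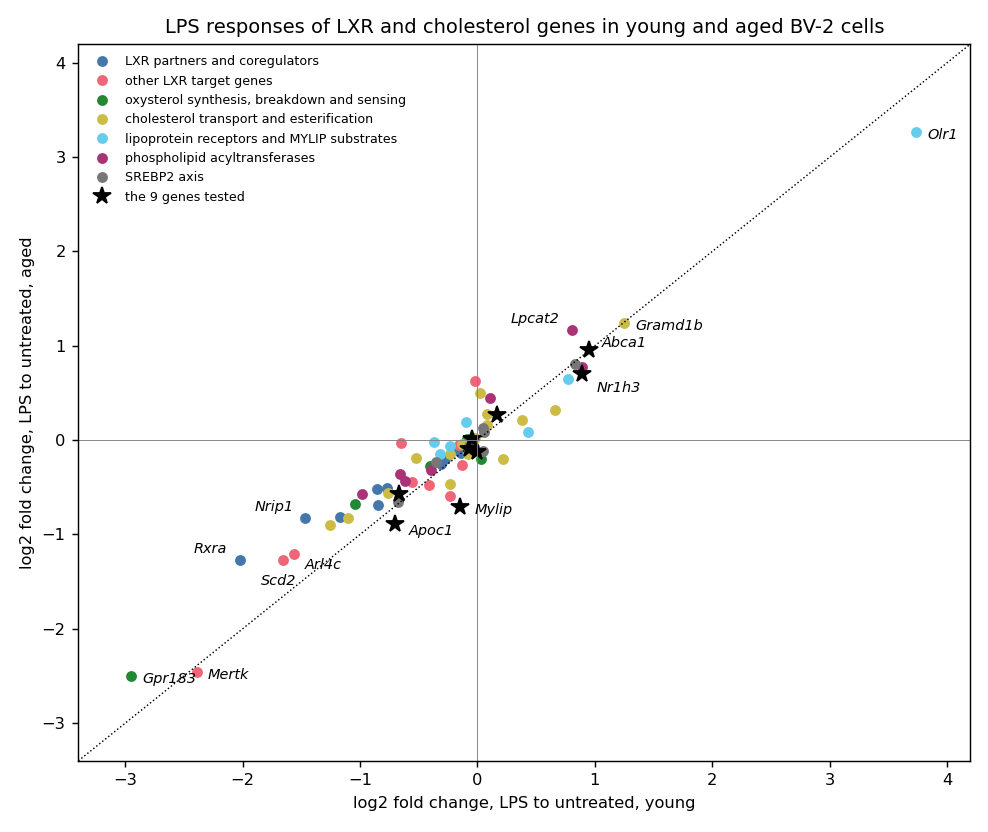
Log2 fold change with LPS in young (horizontal) and aged (vertical) BV-2 cells for the 9 tested members (stars) and the tested genes of 7 related lists (dots, colour by list), with the line of equal response dotted. Both axes are fitted values from edgeR with n = 5 per group. *Rxra* and *Nrip1* lie above the line on the left and *Mylip* below it; the difference of the responses passed for *Rxra* and *Mylip* and not for *Nrip1* (0.64, adjusted p = 0.0526).

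Expression per kb of all annotated exon bases gave an order of the members within a group. This order depends on the annotated lengths, which can exceed those of the transcripts made and were 11317 bases for *Npc1*. The place of *Apoc2* also rests on reads shared with *Gm44805*. In young untreated cultures *Abcg1* was the highest at 21.2 ± 1.77 CPM per kb (SD, n = 5), then *Apoc2* at 17.6 ± 4.48. *Mylip*, *Nr1h3*, *Nr1h2* and *Lpcat3* followed at 14.7, 14.4, 13.9 and 13.8 CPM per kb, apart by less than their SD of 0.46 to 1.01. *Npc1* (11.5 ± 0.79) and *Abca1* (8.70 ± 0.68) were lower, and *Apoc1* stood at 1.07 ± 0.44. In young LPS-treated cultures *Nr1h3* led at 26.7 ± 3.10 CPM per kb, ahead of *Abcg1* at 20.5 ± 1.97 and *Abca1* at 16.8 ± 1.13. In aged LPS-treated cultures *Nr1h3* (19.9 ± 1.39) and *Abcg1* (19.2 ± 4.10) did not differ beyond their spread.

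Other known LXR targets did not rise with *Abca1*. Of the 10 tested, 0 rose with LPS in edgeR, at an unadjusted p under 0.05 or in DESeq2, and 5 fell in young and 6 in aged cells, where 31.2% of all genes were higher and 33.5% lower in young and 27.5% and 26.9% in aged cells. *Mertk*, the receptor for engulfing apoptotic cells, fell by 2.39 and 2.46, *Scd2*, a fatty acid desaturase, by 1.66 and 1.27, and *Arl4c* by 1.56 and 1.21 (log2, young and aged). With age in untreated cells 1 was higher and 4 lower, among them *Arl4c* (-0.45, adjusted p = 0.0103), where 3.71% and 7.81% of all genes were. The other 6 of the 16 listed, among them *Abcg5*, *Abcg8* and *Scd1*, did not pass the filter. Of the 8 genes of the SREBP2 axis, the sterol-sensing arm that raises synthesis and uptake, 0 passed with age at either treatment in edgeR, at an unadjusted p under 0.05 or in DESeq2. Over all 8 lists, 19 of the 73 tested genes passed with age in untreated cells (26%), 51 with LPS in young (69.9%), 48 in aged (65.8%), 32 with age under LPS (43.8%) and 8 in the difference of the responses (11%), or 16 with the replicate number as a block. The shares over all genes tested were 11.5%, 64.6%, 54.4%, 29% and 6.39% in the same order, all without the block. The 73 include the 9 tested interferon and TLR4 response genes, so the pooled shares are not those of LXR and cholesterol genes alone. Of these 9, all passed in both LPS responses and with age under LPS. With age in untreated cells 5 of them passed, and 2 did in the difference of the responses. With the block, edgeR called 1156 of the 12799 genes tested in the difference of the responses, in place of 818.

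Cultures of the same group differed from each other in *Abcg1* along with some other lipid genes and with genes outside the lists. The deviation of each of the 20 cultures from its group mean, in log2 CPM, was correlated between genes as a description, since these cultures share batches and library scaling. *Abcg1* deviated together with *Lpcat3* (r = 0.853), *Abca1* (r = 0.79), *Mylip* (r = 0.76) and *Apoc2* (r = 0.729), but not with *Nr1h3* (r = 0.01), *Nr1h2* (r = -0.32) or *Npc1* (r = -0.37). Over the 12798 other tested genes the median r with *Abcg1* was 0.00, and 1.23% had an r of 0.7 or more. *Srebf1*, which encodes the lipogenic factor SREBP1 and is itself an LXR target, had the highest r of all of them (0.87). *Tkt* was the second (0.869) and *Lpcat3* the third. The next were *Apex1* (0.844), *Tmem51* (0.833), *Dmrta2* and *Ttll1* (0.827 each), *Stx2* (0.825), *Sc5d* (0.823) and *Clp1* (0.821). Neither these nor *Tkt* are in the lists of related genes, so a high r with *Abcg1* was not particular to the listed genes. *Scd2* (r = 0.778), *Srebf2* (r = 0.798) and *Insig1* (r = 0.758) were also among the 1.23%. In the opposite direction stood *Lrp1* (r = -0.82), *Msr1* (r = -0.78) and *Cd36* (r = -0.76), all receptors for lipoproteins or modified lipids. *Apoe* was not among the genes that moved with *Abcg1* (r = -0.31). Much of this rested on aged replicates 1 and 3: over the 16 other cultures, with these deviations from the same group means, r with *Abcg1* was 0.53 for *Srebf1*, 0.46 for *Lpcat3*, 0.39 for *Abca1*, 0.53 for *Mylip* and 0.52 for *Apoc2*. *Lrp1* kept -0.62, while *Srebf2* had 0.17, *Cd36* 0.07 and *Msr1* 0.26.

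**Figure D5:**
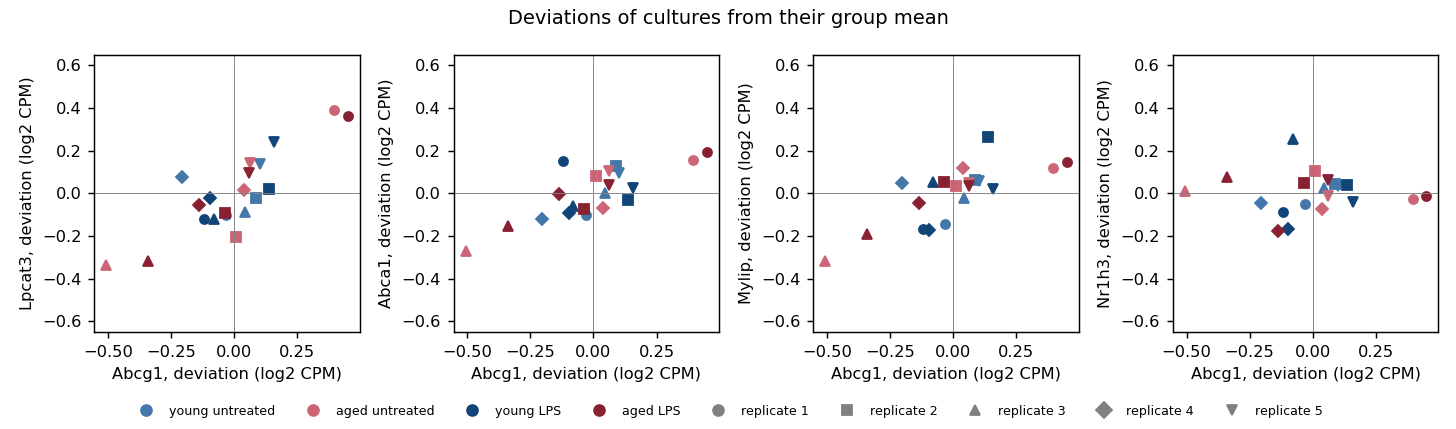
Deviation of each of the 20 cultures from its group mean in log2 CPM for *Abcg1* (horizontal) against *Lpcat3*, *Abca1*, *Mylip* and *Nr1h3* (vertical); colour is the group and shape the replicate number. Aged replicate 1 lies at the upper right and aged replicate 3 at the lower left of the *Lpcat3* panel with and without LPS (r = 0.853), and *Nr1h3* shows no such slope (r = 0.01). Without those 4 cultures r for *Lpcat3* is 0.46.

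The genes most like each member over all 20 libraries, by Pearson's r of log2 CPM and with group differences included, were *Ywhah* (0.975), *Tmem176b* (0.97) and *Klf6* (0.97) for *Abca1* and *B430306N03Rik* (0.982), *Fgd3* (0.982) and *Map7d1* (0.98) for *Nr1h3*. *Abca1* and *Nr1h3* had an r of 0.947 with each other. For *Abcg1* they were *Tkt* (0.857), *Fdps* (0.778) and *Srebf2* (0.777), and for *Lpcat3* *Gm43738* (0.874), *Lss* (0.872) and *Fdps* (0.86). *Fdps* and *Lss* encode enzymes of sterol synthesis. *Mylip* was most like *Nrp1* (0.931), *Fam102b* (0.883) and *Fam53b* (0.877), *Npc1* like *Cacna1b* (0.928), *Zfp992* (0.873) and *Stra6l* (0.858), and *Nr1h2* like *Ctsf*, *Bbx* and *Gm45717* (0.89 each). *Apoc2* was most like *Gm44805* (0.999), which shares its reads, then *Fermt3* (0.926) and *Ccni* (0.897). *Apoc1* was most like *Cd83* (0.797), *Kctd2* (0.797) and *Zfp414* (0.789). These values are over 20 libraries and carry no test.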

How the data were processed

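RNA was sequenced from 20 BV-2 cultures in 4 groups of 5. Per the study's methods, the authors made stranded Illumina mRNA libraries, sequenced them as read pairs on a NextSeq instrument, aligned the reads to GRCm38 with STAR and counted them per Ensembl gene with featureCounts; the submitters' processing notes name FastQC 0.11.8, STAR 2.6.1d, featureCounts 1.5.1 and DESeq2. The deposited values are whole-number counts, not normalized. Columns were matched to samples by the labels, and GENCODE (GRCm38) supplied symbols, positions and exon lengths for 55227 of 55487 identifiers. Counts followed strand: 50 genes lying inside exons of a gene on the opposite strand had a median of 0.174% of its counts per base, and 41 on the same strand had 104%, so reads in a shared stretch of the same strand were counted for both genes.

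Genes were tested with the quasi-likelihood F-test of edgeR (version 4.0.16 in R 4.3.3) over all 20 libraries with group as the only factor, TMM scaling, filterByExpr (minimum count 10, 12799 genes kept) and Benjamini-Hochberg adjustment over all genes tested, with adjusted p below 0.05 as the threshold. The study used DESeq2, which was run as an alternative (DESeq2 1.42.0). Log2 CPM for correlations used a prior count of 2; floors cover counting error only. TMM factors were 1.04 to 1.08 in untreated and 0.891 to 0.973 in LPS-treated libraries. The p-values measure the spread between these cultures; chi-square per degree of freedom was 2.42 to 26.8 in the 40 pairs of cultures of a group, so each pair differed beyond sampling noise.

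The labels give the replicate number as a batch, each with 1 culture of every group, so the numbers pair the cultures. Deviations from group means of same-numbered cultures correlated across genes with a mean r of 0.146, from 0.0425 to 0.276 by pair of groups.

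The members and the lists of related genes were chosen with earlier results of these data known. Named are all members, the genes overlapping them, *Rxra*, *Rxrb*, *Rxrg*, *Vldlr*, *Lrp8*, *Apoe* and *Apoc4*, up to 3 called genes with the largest change per list and comparison, and the 3 genes most correlated with each member. The *Cyp7* genes, *Cyp39a1* and the genes correlated with *Abcg1* within groups were named after their values were seen. Some results of the related lists are not reported here. Alternatives were DESeq2, a replicate block in either tool, scaling by library sizes alone or by the size factors of DESeq2, no filter, at least 10 counts in every library, only the groups compared, *Apoc2* summed with its overlapping gene, and each replicate number or culture left out. The sum for *Apoc2* largely adds the same reads again, so it could hardly change that result. On simulated counts for aged against young untreated cultures, with 200 genes changed 2-fold, edgeR recovered 182 with 11 false calls among 12497 genes, edgeR with the block 180 with 8, and DESeq2 182 with 20 among 12799. The simulation held no LPS effect, no batch and no change smaller than 2-fold, so it does not cover the smaller differences or the LPS comparisons reported here. Promoter sequences came from RefSeq (GRCm38.p6). Figures were made with Python 3.11.15 and matplotlib 3.10.9.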

Additional observations from a re-analysis of the deposited data

Results flagged for a closer look

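The response of *Mylip* to LPS differed between aged and young cells by -0.553 on the log2 scale in the interaction test (edgeR, adjusted p = 0.00881, n = 5 per group, the same direction in 5 of 5 batches).

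Of 36 member-by-group sets of 5 cultures, 4 held a culture set apart from the others by more than 0.71 of the group's range, the limit of Dixon's test for 5 values, where chance gives about 1 in 20. They were *Nr1h2* in young untreated replicate 1 (51.74 CPM, gap 0.804 of the range), *Mylip* in aged untreated replicate 3 (35.9 CPM, 0.775), *Apoc1* in young LPS-treated replicate 1 (0.8891 CPM, 0.729) and *Apoc2* in young LPS-treated replicate 1 (4.445 CPM, 0.855).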

How the results depend on the processing

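Of 348 values of single members under 9 alternatives, 318 kept their direction and their side of the threshold, 7 lost and 9 gained a call, and 14 changed sign. Among the 318 are 5 from *Apoc2* summed with its overlapping gene, a setting that could hardly change them. The changes of sign were mostly of values near 0 that passed no test. Under DESeq2, DESeq2 with the block and DESeq2's size factors, in this order, *Nr1h2* in the young LPS response was 0.00547, 0.00616 and 0.01, *Npc1* with age under LPS -0.00321, -0.0049 and -0.00553, and *Abca1* in the difference of the responses -0.0155, -0.0103 and -0.0177. With at least 10 counts in every library the last was -0.00304. With library sizes alone *Npc1* in the young LPS response was -0.0545, the 1 called value that turned, *Abcg1* in the aged LPS response -0.145 (-0.000809 with no filter) and *Lpcat3* in the difference of the responses 0.0333. Library sizes alone also gave 7 members called in the young LPS response in place of 4 (*Nr1h2*, *Mylip*, *Apoc1* and *Lpcat3*, all lower, were gained and *Npc1* lost), and moved the splits of all genes to 632 higher and 866 lower with age, 2172 and 5476 in the aged LPS response, 3167 and 1353 with age under LPS and 881 and 203 in the difference of the responses, from 475 and 1000, 3523 and 3445, 1794 and 1923 and 527 and 291. With no filter, 27197 genes entered and 2 members in place of 4 passed with age in untreated cells, since *Nr1h3* (adjusted p = 0.0509) and *Nr1h2* (adjusted p = 0.0633) did not. Over all genes, 1214 passed in place of 1475.

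The replicate block gave 16 genes of the related lists in the difference of the responses in edgeR and 17 in DESeq2, in place of 8, and called *Apoc1* in the young LPS response. Calls over all genes in the difference of the responses rose too, from 818 to 1156 in edgeR and from 1052 to 1350 in DESeq2. DESeq2 with the block called *Apoc2* in the aged LPS response (adjusted p = 0.0424) and not *Apoc1* there. The pairing by batch changed no other call of a member.

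Leaving out a replicate number or a culture gave these ranges. Members called were 1 to 4 with age in untreated cells, 2 to 5 and 4 to 6 in the young and aged LPS responses, 4 to 5 with age under LPS and 0 to 1 in the difference of the responses. Genes of the related lists called were 11 to 19, 44 to 53, 44 to 50, 26 to 37 and 1 to 12 in the same order. Values that changed sign among these fits, all of them past no threshold, were *Lpcat3* (-0.0691 to 0.143), *Apoc1* (-0.433 to 0.124) with age in untreated cells, and *Nr1h2* (-0.0535 to 0.0335) in the young LPS response, and *Abcg1* (-0.125 to 0.124), *Lpcat3* (-0.211 to 0.00888) in the aged LPS response, and *Npc1* (-0.0296 to 0.0704), *Lpcat3* (-0.0901 to 0.112) with age under LPS, and *Apoc1* (-0.577 to 0.0678), *Abca1* (-0.0594 to 0.0589), *Abcg1* (-0.0713 to 0.169), *Lpcat3* (-0.129 to 0.0824), *Apoc2* (-0.0581 to 0.265) in the difference of the responses. Depth limits *Apoc1*, at 2 to 22 counts per library, and *Ch25h*, at 0.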
